A study of Canis lupus familiaris with 16 samples.

Results

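Collagens are the proteins of the body's fibers and sheets of extracellular matrix, and each is built from 3 chains that wind into a triple helix. The genes examined here are all genes in the canine count data whose symbol is COL, a number, A and a number. There are 43 of them among 41818 genes, and they were assigned to 11 fibrillar, 6 basement membrane (type IV), 10 FACIT and 16 other collagens. Fibrillar collagens pack into the fibers that give connective tissue its tensile strength, and the major ones are made by fibroblasts. Basement membrane collagens form the sheets under epithelia and around vessels, muscle fibers and Schwann cells. FACIT collagens (fibril-associated collagens with interrupted triple helices) lie on the surface of fibers, and the other collagens include beaded filaments, networks, anchoring fibrils and transmembrane proteins. Since the values are not scaled to transcript length, levels are compared between tumors for each gene and not between genes.

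RNA from archived, formalin-fixed and paraffin-embedded soft tissue sarcomas of dogs was depleted of ribosomal RNA and sequenced on an Ion Proton, 1 sample for each of 16 tumors, with no normal tissue among the samples used here. By the submitters' molecular identity, 4 tumors from dogs aged 9 to 13 years were fibrosarcomas (FS), 6 from dogs aged 8 to 13 years were peripheral nerve sheath tumors (PNST), and 6 from dogs aged 2 to 14 years were perivascular wall tumors (PWT). The dogs were clinical patients and the labels give no experimental treatment or engineered allele. The authors moved 2 tumors away from their histological diagnosis by their gene expression, S1-10 from PWT to PNST and S2-08 from FS to PWT, so the groups are not independent of the genes measured. S1-04 and S1-05, both PNST, have the same clinical entries and may come from 1 dog. In bulk tissue of this kind, fewer cells of a type and less RNA per cell cannot be told apart.

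Between 507728 (S1-12) and 4311876 (S1-03) reads per tumor fell on genes, and 3 FS, 5 PNST and 1 PWT have names beginning with S1, a possible sequencing group. The remaining 1 FS, 1 PNST and 5 PWT have names beginning with S2. Transcripts of *KRT5*, a keratin of the basal epidermis, exceeded 100 CPM (read counts scaled to a common library total) in 5 tumors, namely S1-02 and S1-12 (FS), S1-04 and S1-05 (PNST) and S2-03 (PWT). Summed over 8 osteoblast and chondrocyte markers, the FS S1-11 was at 662 CPM and the other tumors at 34.7 to 252 CPM. S1-11 was the highest of the 16 tumors for *ACAN* (aggrecan, 411 CPM), *SOX9* (16.7 CPM), *ALPL* (27.0 CPM), *BGLAP* (25.9 CPM) and *SP7* (3.24 CPM), but not for *MATN3*, *RUNX2* or *IBSP*, the last at 0 in 15 tumors. Skeletal muscle markers had a summed level of 934 CPM in S1-11, compared with 4.35 to 398 CPM in the other tumors.

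Collagen reads made up a larger part of the libraries in FS than in PWT. They were 3.52% to 9.38% of the reads on genes in the 4 FS (median 4.07%), 2.13% to 4.57% in the 6 PNST (median 2.65%) and 1.01% to 2.55% in the 6 PWT (median 1.40%). All 4 FS lay above all 6 PWT, and PNST overlapped both. Where a tumor had been sequenced in 3 runs, its highest and lowest run differed in this share by 1.03-fold to 1.08-fold, which covers technical error only. Reads outside genes made up 41.8% to 57.5% of all reads counted in FS, 46.1% to 54.6% in PNST and 48.25% to 66.7% in PWT. They were lowest in S1-11 and highest in S2-03, the tumors with the highest and lowest collagen share. The bearing of this on the collagen share was not tested.

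The summed level of the 11 fibrillar genes was 24274 CPM in S1-02, 103319 CPM in S1-11, 29303 CPM in S1-12 and 19284 CPM in S2-06, the 4 FS. In PNST it was 13448 CPM in the lowest tumor, 19921 CPM at the median and 35331 CPM in the highest. In PWT the corresponding values were 6353, 10798 and 18838 CPM. S1-11 lay far above the other FS, and the ranges of FS and PNST overlapped, as did those of PNST and PWT, while FS and PWT did not.

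The basement membrane genes did not follow this order. Their sum was 577, 1852, 1150.0 and 1600.0 CPM in S1-02, S1-11, S1-12 and S2-06, 862 to 2208 CPM in PNST (median 1505) and 792 to 1861 CPM in PWT (median 1429.8). The 3 types overlapped almost entirely. The FACIT sum was 698 to 2914 CPM in FS (median 1784), 484 to 1257 CPM in PNST (median 717) and 186 to 921 CPM in PWT (median 383), with overlap between all types. The sum of the other collagens was 6554 to 9529 CPM in FS (median 8997), 3049.7 to 7412 CPM in PNST (median 5707) and 1201 to 4262 CPM in PWT (median 2887), and here again FS and PWT did not overlap. These sums are descriptions and were not tested.

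**Figure D1:**
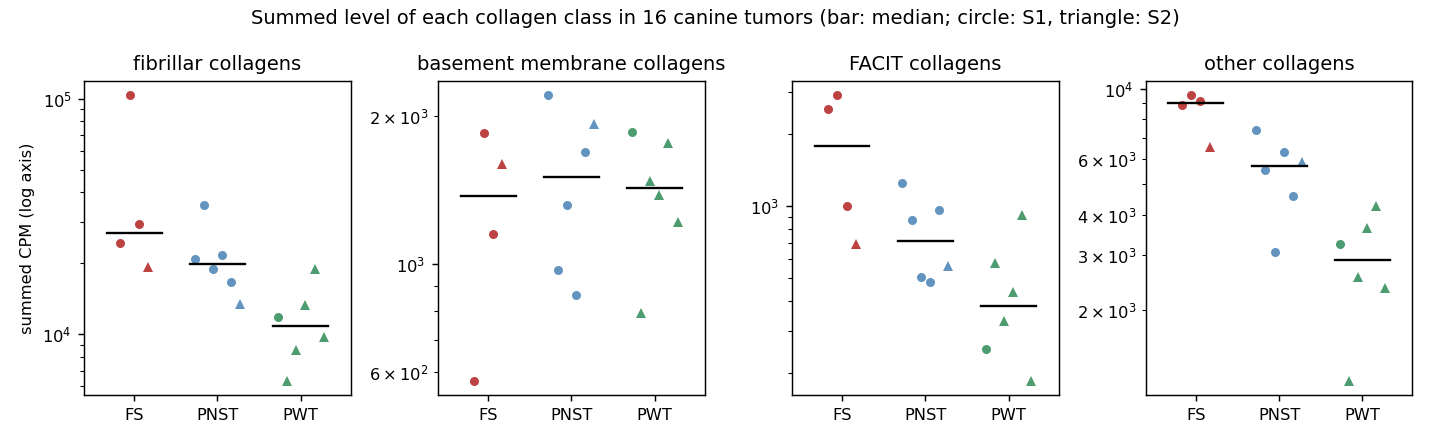
Summed level (CPM, log axis) of the fibrillar, basement membrane, FACIT and other collagen genes in each of 16 canine tumors by type; each point is 1 tumor, circles are S1 and triangles S2 tumors, and the bar is the median of the type. Medians fall from FS over PNST to PWT for fibrillar (26788, 19921 and 10798 CPM), FACIT and other collagens, whereas those of the basement membrane collagens lie between 1375 and 1505 CPM in all 3 types.

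Each tumor type was then compared with both other types pooled, which asks which genes mark that type. A gene was called where edgeR's quasi-likelihood test gave a Benjamini-Hochberg adjusted p-value under 0.05 over all genes tested and the log2 fold change exceeded 1 in size. Of the 43 collagen genes, 29 reached 10 counts in at least 4 tumors and were tested among 15408 genes, 10 fibrillar, 3 basement membrane, 5 FACIT and 11 other. The 3 comparisons share tumors, since each type is part of the others' reference, and they are not independent of each other.

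In FS, 11 collagen genes were called as higher and 1 as lower than in the other types, 12 of 29 (41.4%), where 9.46% of all genes tested were called, 5.78% as higher and 3.68% as lower. By class these were 8 of 10 fibrillar genes, 1 of 5 FACIT genes and 3 of 11 other genes, with 0 of 3 basement membrane genes (0 of these 3 with an unadjusted p-value under 0.05, and 0 called by DESeq2). The median log2 fold change was 1.13 over the 29 genes and 0.00 over all genes tested, and 25 of the 29 were positive. An unadjusted p-value under 0.05 was found for 19 of the 29 and for 25.4% of all genes tested. The 19 were all 10 fibrillar, all 5 FACIT and 4 of the 11 other genes. By class the median log2 fold change was 1.52 for fibrillar, 1.46 for FACIT, 0.87 for other and -0.08 for basement membrane genes. *COL24A1* reached 10 counts in all 4 FS and in 2 of the other 12 tumors, so it was tested only because it was high in FS. The calls depended on single tumors and on the grouping. Without S1-11, 6 genes were called (*COL8A2*, *COL11A1*, *COL14A1*, *COL15A1*, *COL24A1* and *COL27A1*), and with the tumors grouped by histology, 2 were (*COL11A1* and *COL15A1*, where 1.33% of all genes were called). The share of all genes called without S1-11 is not given here, so that lower count is not by itself a trait of the collagens.

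**Figure D2:**
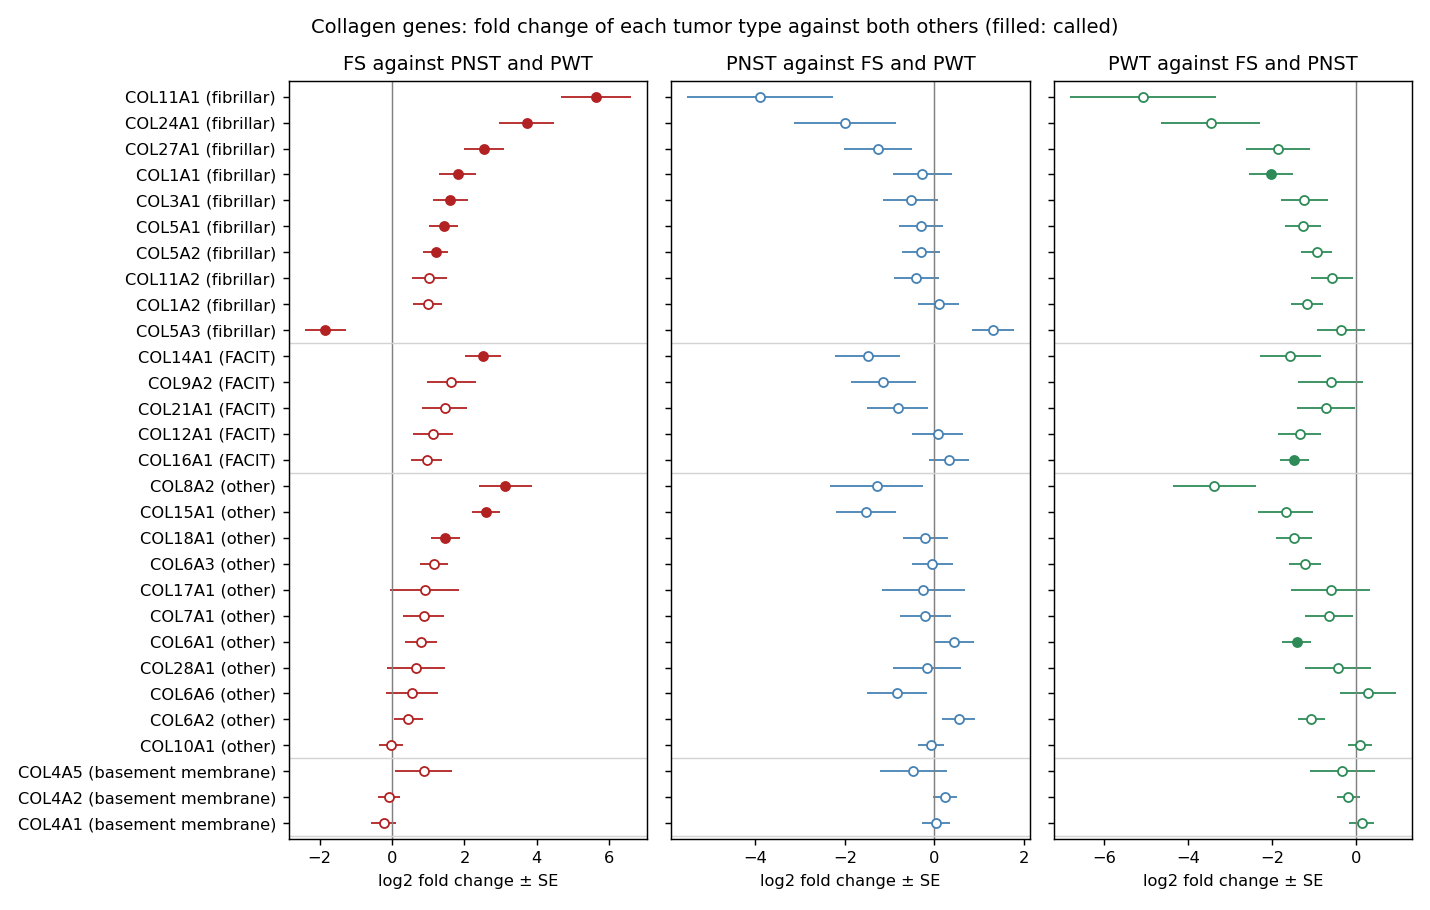
Log2 fold change ± standard error (x axes) of the 29 tested collagen genes in FS, PNST and PWT, each against both other types, from edgeR's quasi-likelihood test; filled points are called genes and lines separate the classes. Of the fibrillar genes, 9 of 10 are to the right of 0 in FS and 10 of 10 are to the left in PWT, while *COL4A1* and *COL4A2* lie within 0.24 of 0 in every panel.

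Type I collagen, the main protein of tendon, dermis and bone, is made of chains from *COL1A1* and *COL1A2*. *COL1A1* was at 8431 CPM in S1-02, 40621 CPM in S1-11, 10796 CPM in S1-12 and 5530.4 CPM in S2-06. It was at 3914, 5880.0 and 12715 CPM in the lowest, median and highest PNST, and at 1739, 2263 and 4199 CPM in PWT. All FS lay above all PWT, but only S1-11 lay above the highest PNST. In FS its log2 fold change was 1.81 ± 0.51 (SE, edgeR adjusted p = 0.0282), and it was 0.82 (edgeR adjusted p = 0.368) without S1-11. *COL1A2* had a log2 fold change of 0.98 ± 0.41 (SE, edgeR adjusted p = 0.137) and was not called. In counts, the ratio of *COL1A1* to *COL1A2* was 2.32 in S1-11, 1.45 in S1-12, 1.33 in S2-06 and 0.933 in S1-02. It was 0.865 to 1.43 in PNST and 0.536 to 1.10 in PWT, a comparison chosen after the values were seen and not tested.

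*COL3A1*, the chain of type III collagen of skin and vessel walls, was at 4488 CPM in S1-02, 35785 CPM in S1-11, 5826 CPM in S1-12 and 6702 CPM in S2-06. In PNST it was at 2205, 5024 and 7921 CPM in the lowest, median and highest tumor, and in PWT at 1626, 3102 and 7083 CPM. S1-11 alone stood above the other types. Its log2 fold change in FS was 1.61 ± 0.49 (SE, edgeR adjusted p = 0.0403), and 0.39 (edgeR adjusted p = 0.667) without S1-11. *COL3A1* also lost its call when the model held the prefix (edgeR adjusted p = 0.0763).

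The chains of type V collagen, which sits in the core of type I fibers and sets their width, differed in direction, with *COL5A1* and *COL5A2* called as higher in FS and *COL5A3* as lower. *COL5A1* was at 504 CPM in S1-02, 2609 CPM in S1-11, 2657 CPM in S1-12 and 762 CPM in S2-06, against 441, 715 and 1208 CPM (lowest, median and highest) in PNST and 238, 466 and 662 CPM in PWT. S1-11 and S1-12 were above every other tumor and S1-02 was inside the range of PNST and PWT. *COL5A1* had a log2 fold change of 1.43 ± 0.40 (SE, edgeR adjusted p = 0.0263), and it lost its call without S1-11 (1.12, adjusted p = 0.140) or S1-12 (1.09, adjusted p = 0.118).

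*COL5A2* was at 1700.1, 5969, 1747 and 1712 CPM in S1-02, S1-11, S1-12 and S2-06, at 1036, 1481 and 1673 CPM in PNST and at 678, 837 and 1555 CPM in PWT. It was the only tested collagen gene with all 4 FS above all 12 other tumors, as was true of 1.53% of all genes tested, and 3 of the 4 FS exceeded the highest PNST by less than 5%. *COL5A2* had a log2 fold change of 1.20 ± 0.34 (SE, edgeR adjusted p = 0.0277), and without S1-11 it was 0.50 (adjusted p = 0.362).

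*COL5A3*, the chain that replaces one of the others in some type V molecules, was the third of these genes. It was at 66.0 CPM in S1-02, 155 CPM in S1-11, 56.0 CPM in S1-12 and 345 CPM in S2-06, against 338, 640.0 and 1505 CPM in PNST and 149, 377 and 672 CPM in PWT. S2-06 lay inside the range of both other types, and S1-11 just inside that of PWT. *COL5A3* was the only collagen gene called as lower in FS, with a log2 fold change of -1.84 ± 0.57 (SE, edgeR adjusted p = 0.0431). Scaled to library size alone, its adjusted p from edgeR was 0.0742 with a log2 fold change of -1.69, and it was 0.116, 0.105 and 0.111 without S1-02, S1-11 or S1-12. Without the 5 tumors with *KRT5* above 100 CPM the log2 fold change was -1.24 (adjusted p = 0.299).

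*COL11A1*, *COL24A1* and *COL27A1* are minor fibrillar chains, and type XI collagen nucleates fibers in cartilage. *COL11A1* was at 9.83 CPM in S1-02, 229 CPM in S1-11, 561 CPM in S1-12 and 1.86 CPM in S2-06. It was at 0, 2.55 and 15.2 CPM in the lowest, median and highest PNST and at 0, 0.651 and 6.33 CPM in PWT. Only S1-11 and S1-12 were high, and the other pair of FS lay inside the range of PNST. *COL11A1* had a log2 fold change of 5.63 ± 0.97 (SE, edgeR adjusted p = 0.00139), and it was called in all 27 alternative fits in which it passed the count filter.

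*COL24A1* was at 8.08, 149, 105 and 16.7 CPM in S1-02, S1-11, S1-12 and S2-06, at 0.620, 2.19 and 29.8 CPM in PNST and at 0, 2.34 and 6.46 CPM in PWT. The 4 FS exceeded all PWT, and the PNST S1-10, at 29.8 CPM, lay above the lower pair of FS. *COL27A1* was at 23.2, 134, 108 and 46.9 CPM in the same FS, at 2.15, 12.2 and 44.7 CPM in PNST and at 1.48, 13.3 and 17.0 CPM in PWT. Here S1-02 alone of the FS lay below the highest PNST, S1-09. The log2 fold changes were 3.72 ± 0.76 (SE, edgeR adjusted p = 0.00444) for *COL24A1* and 2.54 ± 0.54 (SE, edgeR adjusted p = 0.00574) for *COL27A1*. Both were still called without S1-11. *COL11A2*, a further type XI chain, was not called (log2 fold change 1.03, adjusted p = 0.185 from edgeR).

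**Figure D3:**
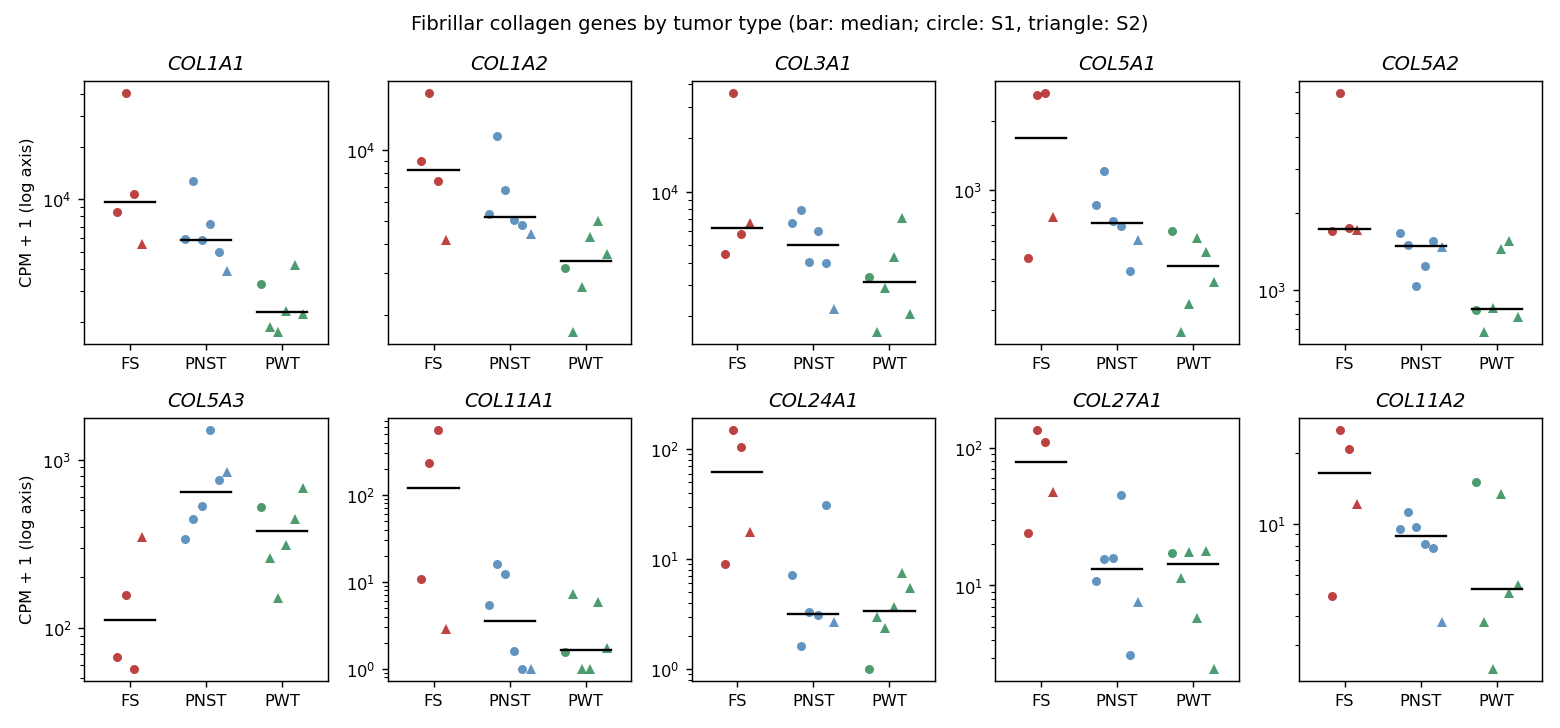
Level of the 10 tested fibrillar collagen genes (CPM + 1, log axes) in each tumor by type; points are tumors, circles are S1 and triangles S2, and bars are medians. S1-11 is the highest point for *COL1A1*, *COL3A1* and *COL5A2* (40621, 35785 and 5969 CPM), and *COL5A3* is the gene whose FS points lie low, at 56.0 to 345 CPM.

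*COL14A1* encodes a FACIT collagen that binds type I fibers and decorin. It was at 1578 CPM in S1-02, 1104 CPM in S1-11, 204 CPM in S1-12 and 157 CPM in S2-06, against 79.9, 129 and 253 CPM in PNST and 44.0, 94.7 and 370.5 CPM in PWT. S1-02 and S1-11 were above every other tumor, whereas S1-12 and S2-06 were not, so the FS that were high here were not the pair that was high for *COL11A1*. *COL14A1* had a log2 fold change of 2.52 ± 0.50 (SE, edgeR adjusted p = 0.00374). *COL12A1*, a FACIT collagen of similar build, was at 740.3, 1057, 603 and 239 CPM in S1-02, S1-11, S1-12 and S2-06, at 169, 275 and 745 CPM in PNST and at 51.0, 153 and 409 CPM in PWT. It was not called (1.13, standard error 0.54, adjusted p = 0.193 from edgeR). *COL9A2*, *COL16A1* and *COL21A1*, the other FACIT genes tested, had log2 fold changes of 0.96 to 1.64 in FS and were not called.

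Among the other collagens, *COL15A1* and *COL18A1* encode the multiplexins, collagens with glycosaminoglycan chains that lie at or near basement membranes, and the end of type XVIII collagen can be released as endostatin. *COL15A1* was at 63.6 CPM in S1-02, 721 CPM in S1-11, 695 CPM in S1-12 and 585 CPM in S2-06, against 44.3, 76.3 and 182 CPM in PNST and 54.1, 89.6 and 99.2 CPM in PWT. The last 3 of these FS stood more than 3-fold above every other tumor, and S1-02 lay within the range of PNST and PWT. *COL15A1* had a log2 fold change of 2.60 ± 0.39 (SE) and the smallest adjusted p of the collagens (0.000531 from edgeR), and it was called in all 29 alternative fits, with adjusted p-values of up to 0.0388.

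*COL18A1* was at 23.5, 90.0, 86.7 and 36.7 CPM in S1-02, S1-11, S1-12 and S2-06, at 21.9, 23.3 and 41.2 CPM in PNST and at 2.75, 13.6 and 22.6 CPM in PWT. All FS lay above all PWT, and S1-11 and S1-12 above all PNST. Its log2 fold change was 1.47 ± 0.40 (SE, edgeR adjusted p = 0.0230), and it lost its call without S1-11 (adjusted p = 0.132) or S1-12 (adjusted p = 0.0809). *COL8A2*, a chain of the network collagen under the corneal endothelium and in vessel walls, was at 1.40 CPM in S1-02, 149 CPM in S1-11, 285 CPM in S1-12 and 79.9 CPM in S2-06. In PNST it was at 6.46, 11.6 and 53.2 CPM and in PWT at 0.791, 5.64 and 12.4 CPM. S1-02 lay below every PNST and the other 3 FS above all tumors of both types. The log2 fold change of *COL8A2* was 3.13 ± 0.74 (SE, edgeR adjusted p = 0.0112), and 2.41 (adjusted p = 0.0650) without S1-12.

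Type VI collagen forms beaded filaments around cells. *COL6A3* was at 6402, 3788, 5037 and 2943 CPM in S1-02, S1-11, S1-12 and S2-06, at 1690.1, 2686 and 3426 CPM in PNST and at 523, 1690.0 and 2279.6 CPM in PWT. All FS lay above all PWT and 3 of the 4 above all PNST, and its log2 fold change in FS of 1.16 ± 0.39 (SE, edgeR adjusted p = 0.0618) was not called by edgeR but was by DESeq2 (adjusted p = 0.0250). *COL6A1* and *COL6A2* had log2 fold changes of 0.81 and 0.45 in FS, *COL6A6*, a further type VI chain, had 0.55 and *COL28A1* had 0.65, and none of these was called by edgeR or DESeq2. *COL17A1*, the hemidesmosome collagen of basal keratinocytes, followed the tumors with epidermal transcripts and not the types. It was at 32.2 to 54.1 CPM in the 5 tumors with *KRT5* above 100 CPM and at 0.564 to 6.46 CPM in the other 11. *COL7A1*, of the anchoring fibrils below the epidermis, was at 419 CPM in S1-12 and 406 CPM in S2-06, the latter with *KRT5* at 0.929 CPM, and was not called (log2 fold change 0.87, adjusted p = 0.365 from edgeR). *COL10A1*, the collagen of hypertrophic cartilage, was at 3.69 to 15.02 CPM in all tumors (-0.02, adjusted p = 0.977 from edgeR).

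Of the type IV chains that are found in most basement membranes, *COL4A1* was at 289 CPM in S1-02, 1063 CPM in S1-11, 531 CPM in S1-12 and 957 CPM in S2-06. In PNST it was at 501, 756 and 1231 CPM and in PWT at 466, 900.4 and 1117 CPM. *COL4A2* was at 262, 780.2, 607 and 643 CPM in the same FS, at 359, 694 and 973 CPM in PNST and at 313, 527 and 802 CPM in PWT. For both genes S1-02 was the lowest of the 16 tumors and the types otherwise overlapped. The log2 fold changes in FS were -0.23 ± 0.34 (SE) for *COL4A1* and -0.08 ± 0.31 (SE) for *COL4A2*, and in PNST and PWT they lay between -0.19 and 0.24. *COL4A5* had 10 or more counts in 2 FS and 2 other tumors and a log2 fold change of 0.87 in FS (edgeR adjusted p = 0.529).

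The 4 FS were not high for the same genes. Over the 11 genes called as higher, S1-11 was the highest FS for 7 and lay above all 12 other tumors for 11, S1-12 was the highest for 3 and lay above them for 8, and S2-06 was the highest for 0 and lay above them for 4. S1-02 was the highest only for *COL14A1*, was the lowest FS for 8 and lay above the other tumors for 2. Since these genes were chosen for a high level in FS, these counts describe the tumors and test nothing. Summed over 6 fibroblast marker genes, the FS were at 1361 to 5662 CPM, PNST at 5130.4 to 6448 CPM and PWT at 3886 to 6857 CPM, with S1-12 and S2-06 the lowest of all tumors. In these, *DCN*, which encodes the collagen-binding proteoglycan decorin, was at 116 and 404 CPM, against 1761 CPM or more elsewhere. Not all of the 6 genes were low in this pair. *THY1* was at 1146 CPM in S1-12 and 289 CPM in S2-06, against 470.0 to 1464 CPM elsewhere, and *LUM* at 46.9 and 82.7 CPM, against 2.75 to 614 CPM elsewhere. Summed mural cell markers (7 genes) were at 576 to 1559 CPM in FS, 384 to 858 CPM in PNST and 380.3 to 711 CPM in PWT. These 7 genes did not share an order of the types. *RGS5* was at 74.0 to 104 CPM in FS, 30.4 to 177 CPM in PNST and 56.4 to 246 CPM in PWT. *ACTA2* was at 9.13 to 210 CPM in FS, 5.67 to 41.5 CPM in PNST and 1.62 to 40.4 CPM in PWT. In S1-02, *PDGFRB* made up 966 of the summed 1186 CPM. The part of other cell types in the collagen levels was not tested. Without the 5 tumors with *KRT5* above 100 CPM, among them S1-02 and S1-12, the only FS left were S1-11 and S2-06. In that fit 11 collagen genes were called in FS, all higher, and *COL11A1* no longer passed the count filter while *COL21A1* was added. These calls rest on that pair of FS, of which S1-11 was far higher in summed fibrillar collagens. The share of all genes called in that fit is not given here.

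**Figure D4:**
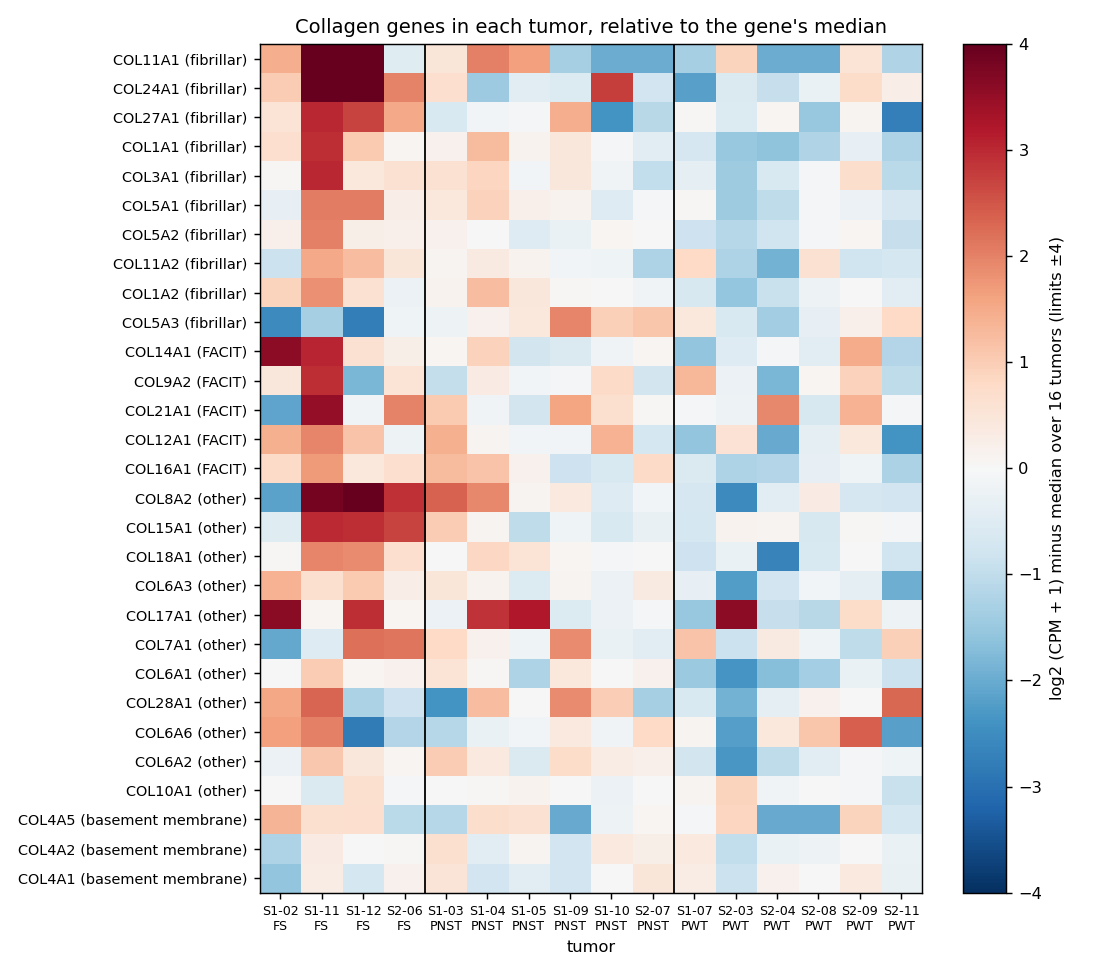
Level of the 29 tested collagen genes (y axis, with their class) in each of 16 tumors (x axis), as log2 (CPM + 1) minus the median of the gene over all tumors, in colors limited to ±4. S1-11 and S1-12 are dark red for *COL11A1* and *COL24A1* (229 and 561 CPM, and 149 and 105 CPM), S1-02 differs from the other FS for *COL15A1* and *COL8A2* (63.6 and 1.40 CPM), and *COL17A1* is red in the 5 tumors with epidermal transcripts.

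The other 14 collagen genes did not reach 10 counts in 4 tumors, and for 7 of them most reads came from 1 or 2 FS. *COL2A1*, the fibrillar collagen of cartilage, had 189 counts in S1-11 (102 CPM) and at most 9 in any other tumor, and *COL19A1* had 70 counts in S1-11 and at most 1 elsewhere. *COL26A1* had 85 counts in S2-06 and 22 in S1-12, with at most 3 elsewhere. *COL6A5* had 103 counts in S2-06 and 11 in S1-02, with at most 8 elsewhere. *COL25A1* had 50 counts in S1-11 and 10 in S1-02, *COL13A1* 24 counts in S1-11 and 7 in S1-12, and *COL23A1* 23 counts in S1-12. *COL9A1* had 3 counts, *COL20A1* 11, *COL9A3* 17 and *COL22A1* 21 over all 16 tumors together, too few for any comparison at this depth. *COL4A3* (28 counts), *COL4A6* (46) and *COL4A4* (91), type IV chains of specialised basement membranes, had their highest count in S1-02 or S1-04, 12, 10 and 28 counts respectively. DESeq2, which applies another filter on low counts, called 17 collagen genes in FS (16 higher and 1 lower, where 9.79% of all genes were called). These were the 12 genes above together with *COL6A3*, *COL13A1*, *COL25A1*, *COL26A1* and *COL6A5*. Of these, *COL13A1*, *COL26A1* and *COL6A5* rest on the few tumors just named. *COL25A1* was at 2.32 to 27.0 CPM in FS, on 3 to 50 counts, and at 0 to 1.38 CPM in the other types.

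In PNST, 0 of the 29 collagen genes were called by edgeR, where 0.00% of all genes tested were called, and 0 by DESeq2, where 1.54% were. An unadjusted p-value under 0.05 was found for 3 collagen genes, and for 15.7% of all genes tested. These were *COL5A3*, with a log2 fold change of 1.30 (edgeR adjusted p = 0.224), *COL11A1* with -3.89 (adjusted p = 0.278) and *COL15A1* with -1.52 (adjusted p = 0.288). The median log2 fold change of the 29 genes was -0.27, and that of all genes -0.06. For 19 of the 29 genes the median of PNST lay between a higher median of FS and a lower median of PWT.

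In PWT, 3 collagen genes were called, all lower than in the other types, 3 of 29 (10.3%), where 2.12% of all genes were called in either direction and 0.714% as lower. They were one fibrillar, one FACIT and one beaded filament gene, *COL1A1*, *COL16A1* and *COL6A1*. The median log2 fold change was -1.17 over the 29 genes and -0.08 over all genes tested, 26 of the 29 were negative, and 17 had an unadjusted p-value under 0.05, as had 22.4% of all genes. The negative ones included all 10 fibrillar and all 5 FACIT genes, with medians of -1.26 and -1.34, and 9 of 11 other genes (median -1.07).

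*COL6A1*, whose chain joins that of *COL6A2* in type VI collagen, was at 292 CPM in the lowest PWT, 553 CPM at the median and 1230.1 CPM in the highest. It was at 1521, 3013, 1558 and 1674 CPM in S1-02, S1-11, S1-12 and S2-06 and at 639, 1609 and 2191 CPM in PNST. All PWT lay below all FS, and the lowest PNST, S1-05, lay among them. The log2 fold change of *COL6A1* in PWT was -1.42 ± 0.34 (SE, edgeR adjusted p = 0.0355). *COL16A1*, a FACIT collagen of skin and smooth muscle, was at 55.4, 74.7 and 120.3 CPM in PWT, at 231, 448, 182 and 216 CPM in the 4 FS and at 76.7, 192 and 328 CPM in PNST. Again all PWT lay below all FS and overlapped with the low PNST. Its log2 fold change was -1.47 ± 0.35 (SE, edgeR adjusted p = 0.0375), and that of *COL1A1*, whose values are given above, was -2.03 ± 0.52 (SE, edgeR adjusted p = 0.0458).

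These 3 calls were close to the threshold. *COL16A1* was still called in 17, *COL6A1* in 16 and *COL1A1* in 11 of 29 alternative fits. With the prefix as a term, 0 were called, with adjusted p-values of 0.275 for *COL6A1*, 0.286 for *COL16A1* and 0.486 for *COL1A1* from edgeR. Within the S2 tumors, where the reference was 1 FS and 1 PNST, log2 fold changes were -1.31, -1.47 and -0.94 (adjusted p = 0.447, 0.307 and 0.557 from edgeR). Since 5 of the 6 PWT are S2 tumors and 8 of the other 10 are S1 tumors, the prefix and the type are largely confounded here. By histology 0 collagen genes were called in PWT, where 0.00% of all genes were, and 0 without the 5 tumors with *KRT5* above 100 CPM. The share of all genes called is not given here with the prefix as a term, within the S2 tumors or without those 5 tumors. DESeq2 called 10 collagen genes, all lower, where 2.59% of all genes were called as lower. They were these 3 with *COL1A2*, *COL5A1*, *COL6A2*, *COL6A3*, *COL8A2*, *COL18A1* and *COL24A1*, and their edgeR log2 fold changes were -3.46 to -1.07.

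Pairs of partner chains were then compared over the 16 tumors, 5 of chains found in the same molecule and 1, *COL3A1* and *COL1A1*, of collagens that share mixed fibers, with both genes past the filter in all 6 (log2 of CPM + 1, two-sided permutation tests with 100000 resamples, Benjamini-Hochberg adjustment over the 6 pairs). *COL6A1* and *COL6A2* had a Pearson's r of 0.935 (permutation p = 1e-05, adjusted 3e-05) and a Spearman's rho of 0.926 (permutation p = 1e-05), the smallest p these permutations can give. *COL1A1* and *COL1A2* had an r of 0.924 (permutation p = 1e-05, adjusted 3e-05) and a rho of 0.938 (permutation p = 1e-05). *COL4A1* and *COL4A2* had an r of 0.854 (permutation p = 3e-05, adjusted 6e-05) and a rho of 0.785 (permutation p = 0.00051). *COL3A1* and *COL1A1* had an r of 0.869 (permutation p = 0.00012, adjusted 0.00018) and a rho of 0.782 (permutation p = 0.0007).

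The remaining 2 pairs had lower values of r. *COL5A1* and *COL5A2* had an r of 0.744 (permutation p = 0.00071, adjusted 0.000852) and a rho of 0.624 (permutation p = 0.0114), and *COL6A1* and *COL6A3* an r of 0.731 (permutation p = 0.00111, adjusted 0.00111) and a rho of 0.779 (permutation p = 0.00062). After leaving out the 2 tumors farthest from the median of the first gene, r was 0.909 for *COL6A1* and *COL6A2*, 0.874 for *COL1A1* and *COL1A2*, 0.720 for *COL4A1* and *COL4A2* and 0.685 for *COL3A1* and *COL1A1*. It was 0.605 for *COL5A1* and *COL5A2*, where rho was then 0.442 (permutation p = 0.116), and 0.568 for *COL6A1* and *COL6A3*. The 2 tumors left out for *COL5A1* and *COL5A2* were S1-11 and S1-12.

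Within the 9 S1 and the 7 S2 tumors, r was 0.932 and 0.911 for *COL6A1* and *COL6A2*, 0.940 and 0.944 for *COL4A1* and *COL4A2*, and 0.935 and 0.706 for *COL1A1* and *COL1A2* (exact permutation p = 0.0613 for the last value). It was 0.931 and 0.674 for *COL3A1* and *COL1A1* (exact permutation p = 0.103 in S2), 0.627 and 0.943 for *COL5A1* and *COL5A2* (exact permutation p = 0.0741 in S1), and 0.577 and 0.716 for *COL6A1* and *COL6A3* (exact permutation p = 0.102 and 0.0810). With the mean of each type removed, r stayed at 0.905, 0.898, 0.848 and 0.856 for *COL6A1* and *COL6A2*, *COL4A1* and *COL4A2*, *COL1A1* and *COL1A2*, and *COL3A1* and *COL1A1*. It was 0.522 for *COL5A1* and *COL5A2* and 0.377 (permutation p = 0.148) for *COL6A1* and *COL6A3*. *COL4A1* and *COL4A2*, and *COL6A1* and *COL6A2*, are also next to each other among the protein-coding genes of a canine RefSeq assembly, as are *COL3A1* and *COL5A2*. All values of 1 tumor share its library and its depth.

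**Figure D5:**
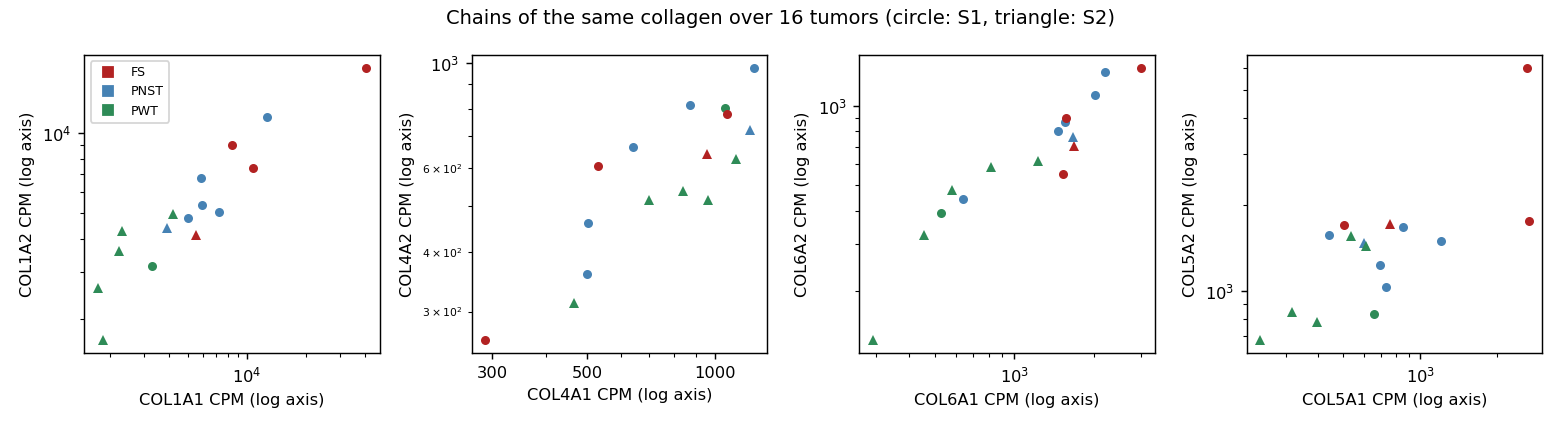
Levels (CPM, log axes) of 4 pairs of collagen chains over 16 tumors, colored by type, with circles for S1 and triangles for S2 tumors. Points of *COL1A1* and *COL1A2* and of *COL6A1* and *COL6A2* lie close to a line (r of 0.924 and 0.935), while *COL5A1* and *COL5A2* scatter more widely (r of 0.744), and S1-12 is high for *COL5A1* (2657 CPM) but not for *COL5A2* (1747 CPM).

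Collagen chains need a set of enzymes and chaperones before they can form fibers, and 60 genes of collagen biosynthesis, receptors and turnover were examined next, of which 53 passed the count filter. In FS, 12 of the 53 (22.6%) were called by edgeR, all higher, where 9.46% of all genes were called and 5.78% as higher. The 12 include *ADAMTS3* and *ADAMTS14*, which passed the count filter only through FS, so the share of 22.6% partly rests on that filter. DESeq2 called 14, where 9.79% of all genes were called. Of the 14, 13 were higher and 1, *P3H2*, a prolyl 3-hydroxylase, was lower (adjusted p = 0.00947 from DESeq2, and 0.0568 with a log2 fold change of -2.52 from edgeR). The median log2 fold change from edgeR was 0.51 over all 53 genes and 0.00 over all genes tested. All 13 genes of folding and export were positive and 4 were called, *SERPINH1*, the collagen chaperone HSP47, with 1.11 ± 0.34 (SE, edgeR adjusted p = 0.0402), *FKBP10*, a prolyl isomerase, with 2.29 (0.39, adjusted p = 0.00124), *SEC24D*, part of the coat of vesicles that carry procollagen, with 2.06 (0.33, adjusted p = 0.000836), and *CREB3L1*, a transcription factor of collagen secretion, with 3.20 (0.63, adjusted p = 0.00359). *FKBP10* was at 189.7 ± 88.9 CPM in FS (SD, n = 4) and 38.6 ± 25.2 CPM in the other types (n = 12), and *SEC24D* at 127 ± 53.3 and 30.5 ± 14.0 CPM.

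Of the 5 enzymes that cross-link fibers, *LOX*, *LOXL1* and *LOXL2* were called in FS, with log2 fold changes of 1.56, 2.09 and 1.59 (adjusted p = 0.0339, 0.00474 and 0.00856 from edgeR). Of 7 propeptide processing genes, *ADAMTS3* and *ADAMTS14*, which remove the amino-terminal propeptides of fibrillar collagens, were called with 3.72 and 2.61 (adjusted p = 0.00117 and 0.0200). *ADAMTS3* reached 10 counts in 4 FS and 3 other tumors and *ADAMTS14* in 3 FS and 1 other tumor, so that both were tested only because they were high in FS. *ADAMTS3* was at 29.3 ± 14.3 CPM in FS and 2.03 ± 2.22 CPM in the other types. Of 13 hydroxylation and glycosylation genes, *P3H3* and *P3H4* were called with 2.22 and 2.29 (adjusted p = 0.0273 and 0.00101), and of 9 receptors, the fibrillar collagen integrin *ITGA11* with 2.16 (adjusted p = 0.0103). None of 6 degradation genes was called by edgeR or DESeq2, and 1 had an unadjusted p-value under 0.05. Without S1-11, 8 of the 53 genes were called, and by histology 4 (*ADAMTS3*, *FKBP10*, *P3H4* and *SEC24D*). The share of all genes called was 1.33% by histology and is not given here without S1-11.

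In PNST, 0 of the 53 genes were called by edgeR, where 0.00% of all genes tested were. DESeq2 called 1 (*TMEM38B*, lower), where 1.54% of all genes were called. An unadjusted p-value under 0.05 was found for 7 of the 53 and for 15.7% of all genes tested. In PWT, 3 of the 53 (5.66%) were called, where 2.12% of all genes were. *FKBP10* was lower, with a log2 fold change of -2.20 ± 0.51 (SE, edgeR adjusted p = 0.0323), and so was *P3H1*, a prolyl 3-hydroxylase, with -1.02 ± 0.26 (SE, adjusted p = 0.0418). *PLOD2*, the lysyl hydroxylase of telopeptide cross-links, was higher, with 1.25 ± 0.31 (SE, adjusted p = 0.0399), at 186 ± 63.5 CPM in PWT (n = 6) and 77.5 ± 34.9 CPM in the other types (n = 10). As for the collagens of PWT, 0 of the 3 calls held with the prefix as a term or by histology, where 0.00% of all genes were called by histology. Without S2-03, S2-04, S2-09 or S2-11, each a PWT, 0 of these 3 calls held. For these fits and for the prefix as a term, the share of all genes called is not given here. The median log2 fold change of the 53 genes in PWT was -0.60, against -0.08 over all genes, and 43 of them were negative.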

How the data were processed

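The authors extracted RNA from 2 sections of each tumor, aligned the reads to the canine genome ROS-canfam-01 with STAR2 and deposited raw counts per gene from htseq-count. Versions, annotation release and strand setting are not given in the sources used here, so counts of genes with an overlapping or antisense partner are uncertain. Each S1 tumor had 3 runs, which were summed. Genes were matched by symbol, and all 43 matched a RefSeq entry.

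Counts were normalized with TMM, and CPM are counts divided by the scaled library total, on the usual CPM scale. Genes reaching 10 counts in 4 or more tumors were tested with edgeR 4.0.16 (glmQLFit and glmQLFTest, R 4.3.3), with all 16 tumors in each fit, 1 type against both others, and DESeq2 1.42.0 as an alternative. The standard error is the absolute log2 fold change divided by the square root of the F statistic. The edgeR fit was also run on counts simulated with the same spread for every gene, which cannot check the calls made in these tumors. Replicates are separate tumors, S1-04 and S1-05 possibly excepted. Depth, 507728 to 4311876 reads on genes, limits genes with few counts most in S1-12. Other settings were other scaling factors, no filter, the prefix as a term or 1 prefix only, histology groups, a model with 3 groups, tumors left out, S1-04 and S1-05 summed, and all tumors thinned to 507728 counts.

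Values in every FS, with the lowest, median and highest in PNST and PWT, are given for the collagen genes called in any comparison and for the 2 with the highest mean of each class, and biosynthesis genes are named where called. Collagen genes and gene lists were chosen with earlier results of these data known, and the tests over all genes alone support a call.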

Additional observations from a re-analysis of the deposited data

Results flagged for a closer look

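For the 18 collagen genes whose values are given in every FS, and for the summed classes, each type was searched for a tumor apart from the others of its type by Dixon's test at the 95% level. Of 66 groups of values, 10 had one, each time the highest tumor of its type. About 1 in 20 would be marked by chance among independent groups of normally distributed values. These groups share tumors and the CPM were not log-transformed, so that rate is not a reference for the 10. In FS the tumor was S1-11 each time. Its *COL1A1* level was 40621 CPM, with the nearest FS at 10796 CPM. *COL3A1* was at 35785 CPM there (nearest 6702 CPM), *COL5A2* at 5969 CPM (nearest 1747 CPM) and *COL6A1* at 3013 CPM (nearest 1674 CPM), and the summed fibrillar collagens were at 103319 CPM (nearest 29303 CPM). In PNST, S1-04 stood apart for *COL1A1* at 12715 CPM (nearest 7203 CPM) and for *COL14A1* at 253 CPM (nearest 140.1 CPM), S1-10 for *COL24A1* at 29.8 CPM (nearest 6.19 CPM) and S1-09 for *COL27A1* at 44.7 CPM (nearest 14.9 CPM). In PWT, S2-09 stood apart for *COL14A1* at 370.5 CPM (nearest 125 CPM). The cause of these differences was not tested.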

How the results depend on the processing

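No fold change of a called collagen gene changed sign in any alternative. The 12 calls in FS became 4 within the S1 tumors, 2 by histology and 7 without S1-10 and S2-08, and 6 to 13 when each tumor was left out, with 6 without S1-11. Without a filter they were 16, but *COL1A1*, *COL3A1* and *COL5A2* were lost (adjusted p = 0.0705, 0.0912 and 0.0731 from edgeR) and 7 genes of few counts gained. The 3 calls in PWT became 0 without a filter, 10 with DESeq2, 0 with the prefix as a term, 0 within the S2 tumors, 0 by histology, 1 without S1-10 and S2-08, 9 in the model with 3 groups and 0 without the tumors with *KRT5* above 100 CPM, an alternative chosen after seeing the data. Leaving out each tumor gave 0 to 4, with 0 without S1-03, S1-07, S2-03, S2-04 or S2-11, and 1 without S1-04, S1-09, S2-08 or S2-09. In PNST it was 0 throughout. Calls over all genes changed too, by histology from 9.46% to 1.33% in FS and from 2.12% to 0.00% in PWT. The share over all genes is not given here for the other edgeR settings. A lower count is therefore not by itself a trait of the collagens. Of the 12 biosynthesis and turnover genes in FS, 4 were called by histology and 8 to 13 with tumors left out, and the 0 of PNST became 1 with DESeq2. The 3 of PWT became 5 with RLE factors, 1 without a filter, 10 with DESeq2, 0 with the prefix as a term, within S2 or by histology, 1 without S1-10 and S2-08 or with S1-04 and S1-05 as 1 sample, 8 with 3 groups, 0 without the tumors with *KRT5* above 100 CPM and 0 to 6 with each tumor left out. With each tumor left out, the medians of the summed classes in FS, PNST and PWT were 24274 to 29303, 19008 to 20835 and 9778 to 11819 CPM (fibrillar), 1150.0 to 1600.0, 1320.5 to 1689 and 1383 to 1477 CPM (basement membrane), 1007 to 2559.8, 563 to 872 and 330.4 to 436 CPM (FACIT), and 8856 to 9138, 5534 to 5880.3 and 2547 to 3228 CPM (other). Correlations lost their permutation p-value under 0.05 for *COL1A1* and *COL1A2* in S2 (0.706), *COL3A1* and *COL1A1* in S2 (0.674), *COL5A1* and *COL5A2* in S1 (0.627), and *COL6A1* and *COL6A3* in S1 (0.577), in S2 (0.716) and with type means removed (0.377). Spearman's rho did so for the same pairs and settings other than *COL6A1* and *COL6A3* in S2, and also for *COL4A1* and *COL4A2* in S2 (rho 0.714, exact permutation p = 0.0881) and, without S1-11 and S1-12, for *COL5A1* and *COL5A2* (0.442). The cause of these changes was not tested. Other scalings moved the median log2 fold change of all genes by at most 0.06. No paired analysis was possible because the tumors of different types come from different dogs and their numbers only name them.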
